A study of Mus musculus with 24 samples.

Results

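The endoplasmic reticulum (ER) chaperone and unfolded protein response genes were followed across 8 lines of B16F10-luc2 mouse melanoma cells. They were chosen by symbol from a list of 36 genes, made up of 13 chaperones and cofactors, 4 disulfide isomerases, 5 stress sensors and factors, 10 genes of ER-associated degradation and 4 genes of the protein-conducting channel. The normalised expression table held 12010 genes, and 35 of the 36 were among them. The remaining gene, Derl3, was not analysed here.

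Proteins that enter the secretory pathway are threaded into the ER through the Sec61 channel, folded there by chaperones such as BiP (the product of Hspa5) and GRP94 (Hsp90b1), and linked by disulfide isomerases. When unfolded proteins build up, the sensors IRE1 (Ern1), ATF6 and PERK signal to the nucleus. ATF6 and XBP1 raise the chaperones and the degradation machinery, and the PERK arm slows translation and raises ATF4 and its targets. Pigment cells are secretory cells, since the melanosome proteins pass through the ER, and MITF, TFEB and TFE3 are related factors that bind E-box motifs.

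B16F10-luc2 is a melanoma line from a C57BL/6 mouse that carries a luciferase reporter, and its KO lines were grown from single clones, so that each genotype is 1 clone. The parental cells (labelled WT) were compared with the Mitf-KO, Tfe3-KO and Tfeb-KO lines, here MITF KO, TFE3 KO and TFEB KO, with the TFEB/TFE3, MITF/TFE3 and MITF/TFEB double KOs (DKO), and with the triple KO (TKO). All lines carry luciferase and were grown in DMEM with serum under no added treatment named in the labels, with 3 libraries for each line. The labels do not say whether the 3 libraries came from separate cultures, so the p-values measure only the spread between these libraries.

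Each library held between 18300902 and 26667877 reads on genes, and the 3′ kit gives reads at the end of a transcript that do not grow with its length. The melanoma label held, since all 6 melanocyte lineage markers (Sox10, Mlana, Pmel, Tyr, Dct, Tyrp1) were present, with a summed level between 15500 and 38963 CPM (counts scaled to a common library total), lowest in the TKO and the MITF/TFEB DKO. Of the markers of other cells, 2 of 5 fibroblast, 2 of 5 leukocyte, 1 of 4 endothelial and 1 of 4 keratinocyte genes were in the table, with summed levels of at most 45.3, 5.12, 31.6 and 19.3 CPM in any library. The keratinocyte gene Krt14 had a mean of 17.4 CPM for TKO and 7.74 CPM for MITF/TFEB DKO cells, and was at 0 in the 3 parental libraries; its part in the results was not tested. Tfeb and Tfe3 mRNA were lower in every line that lacks the gene than in the parental cells, by between 0.67 and 1.99 on the log2 scale. Mitf mRNA was higher in the MITF KO, at 1397 ± 63.3 CPM (SD, n = 3) against 776 ± 18.5 CPM, so its level does not check that label, and the MITF KO may keep a truncated protein.

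Levels are CPM scaled by the TMM method, and differences are log2 fold changes of CPM + 1. A gene was called higher or lower when limma's adjusted p (Benjamini-Hochberg, over all 12010 genes) was under 0.05, in 1 fit of the 24 libraries. All 7 comparisons with the parental cells share the same 3 parental libraries. In such cultures, fewer cells that make an mRNA and less of it in each cell cannot be told apart.

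The promoters of these genes are shown first, because chaperone genes are known for a shared element. The ER stress element (ERSE, CCAAT and CCACG with 9 bases between them, searched on both strands like all motifs here) is the site at which ATF6 and NF-Y bind. RefSeq promoters on GRCm38.p6, from 250 bases before to 50 after the gene start, were found for 29 of the 35 genes (30 promoters). The element was present in 8 of the 30 promoters (26.7%), against 0.119% of all 32851 promoters of that length and 0.146% of the 12312 promoters of genes in the table. These genes were Hspa5, Hsp90b1, Calr, Canx, Dnajc3, Creld2, Pdia6 and Syvn1. All 8 are printed from 5′ to 3′ on the strand of the gene, with the element in capitals, since the element is the letters these promoters share. All but Syvn1 belong to genes called lower in the MITF/TFE3 DKO, where 19 of the 35 genes and 21.7% of all genes were lower. Syvn1 was not called there (0.77 ± 0.45, limma adjusted p = 0.18). The element was not found for the other lower genes, among them Pdia4, Hspa13 and Pdia3, and not all members had a promoter here. A link between the element and the levels was not tested. Hsp90b1 holds 2 copies.
Hspa5, chr2:34772013-34772055, + strand: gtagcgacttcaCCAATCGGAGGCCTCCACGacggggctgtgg
Hsp90b1, chr10:86705521-86705668, - strand: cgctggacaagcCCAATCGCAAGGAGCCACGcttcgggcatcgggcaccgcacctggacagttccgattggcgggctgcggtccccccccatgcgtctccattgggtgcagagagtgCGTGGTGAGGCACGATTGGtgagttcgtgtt
Calr, chr8:84847063-84847167, - strand: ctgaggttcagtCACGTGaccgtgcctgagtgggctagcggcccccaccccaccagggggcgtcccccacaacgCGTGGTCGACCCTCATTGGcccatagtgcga
Canx, chr11:50325788-50325830, - strand: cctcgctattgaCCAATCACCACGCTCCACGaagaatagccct
Dnajc3, chr14:118937815-118937857, + strand: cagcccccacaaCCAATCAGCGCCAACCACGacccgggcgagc
Creld2, chr15:88819508-88819550, + strand: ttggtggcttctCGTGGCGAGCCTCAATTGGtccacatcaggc
Pdia6, chr12:17266456-17266521, + strand: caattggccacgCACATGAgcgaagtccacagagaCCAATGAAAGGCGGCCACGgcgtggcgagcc
Syvn1, chr19:6046520-6046562, + strand: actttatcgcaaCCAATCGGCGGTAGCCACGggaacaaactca
In Calr and Creld2 the element reads on the opposite strand, as does the second copy of Hsp90b1. The first capitals of Calr (CACGTG) are an E-box, and those of Pdia6 (CACATGA) are an M-box (TCATGTG) on the opposite strand. The M-box was found in Pdia6 and Sec61b, 6.7% of the 30 promoters, against 3.77% of all and 2.11% of those of genes in the table.

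Herpud1 and Crebrf held other motifs, and a link between these motifs and the levels was not tested. Of the other genes with the E-box of Crebrf, Atf6b, Calr and Selenos were lower in the MITF/TFE3 DKO. Dnajb9 and Ssr1 also held it and were not called there. The shorter ERSE-II (ATTGG and CCACG with 1 base between them) was found in Herpud1 and Dnajb11 (6.7% of the 30 promoters, against 0.037% of all and 0.073% of those of genes in the table). The C/EBP-ATF response element (CARE, TGATGCAA), a site of ATF4, was found in Herpud1 (3.3%, against 0.895% and 0.52%). The E-box CACGTG, the site of MITF, TFEB and TFE3, was found in Atf6b, Calr, Crebrf, Dnajb9, Selenos and Ssr1 (20%, against 7.15% of all and 10.1% of those of genes in the table), and the UPRE (TGACGTGG) in none (against 0.676% and 0.902%). In Herpud1 the capitals mark the CARE on the opposite strand and then the ERSE-II, and in Crebrf they mark 2 E-boxes.
Herpud1, chr8:94386305-94386399, + strand: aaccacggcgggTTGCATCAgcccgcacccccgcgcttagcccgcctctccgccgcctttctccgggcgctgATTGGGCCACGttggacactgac
Crebrf, chr17:26715513-26715649, + strand: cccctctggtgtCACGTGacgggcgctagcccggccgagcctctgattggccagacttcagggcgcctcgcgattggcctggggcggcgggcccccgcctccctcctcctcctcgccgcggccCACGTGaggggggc
These matches describe letters in the window, and binding was not measured here.

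The MITF/TFE3 DKO was the line in which the 35 ER genes had the lowest summed level. Against the parental cells, 19 of the 35 genes were lower and 2 were higher, where 21.7% of all genes were lower and 20.2% were higher. The median log2 fold change was -0.25 over the 35 genes and 0.02 over all genes. The line had the lowest mean of the 8 for 19 of the 35 genes, and for 15.6% of all genes. The summed level of the 35 genes was 7697 ± 309 CPM (SD, n = 3) in the MITF/TFE3 DKO, against 9973 ± 443 CPM in the parental cells, 11091 ± 305 CPM for MITF KO and 10317 ± 91.2 CPM for TKO. Its 3 libraries, between 7342 and 7904 CPM, lay below every other library of the study, of which the lowest was a TFEB KO library at 9146 CPM. The sum weighs abundant genes most: Hspa5, Calr, Sec61a1, Hsp90b1 and Canx had parental means of 1818, 1339, 1116, 978 and 760 CPM. Of these, Sec61a1 was not called in the MITF/TFE3 DKO. Gene by gene, all 3 libraries of that line were below all parental ones for 21 of the 35 genes, and this held for 25.5% of all genes. The adjacent plot sets the share of the 35 genes called in each comparison beside that of all genes.

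**Figure D1:**
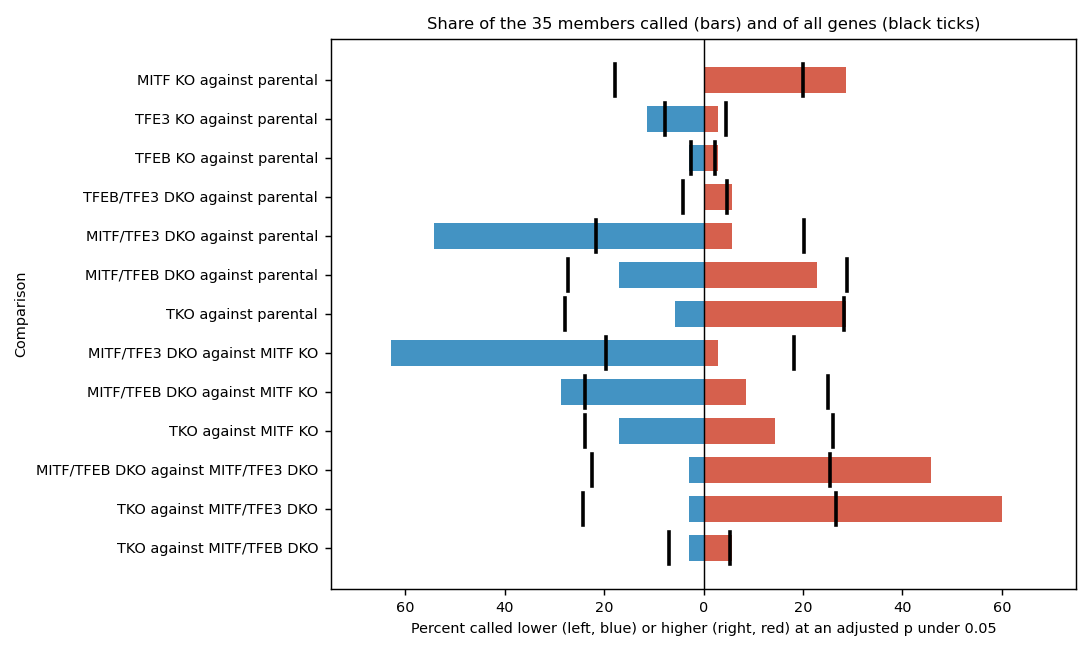
Percent of the 35 ER genes called lower (blue, to the left) or higher (red, to the right) by limma at an adjusted p under 0.05 in 13 comparisons, with black ticks for the percent of all 12010 genes. Lower calls exceed the tick most in the MITF/TFE3 DKO against the parental cells (19 genes) and against the MITF KO (22 genes), and higher calls in the TKO against the MITF/TFE3 DKO (21 genes).

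By role, 10 of the 13 chaperones and cofactors and all 4 disulfide isomerases were lower in the MITF/TFE3 DKO, with median log2 fold changes of -0.37 and -0.51. Of all genes, 21.7% were lower there and 20.2% were higher. Of the 9 degradation genes 3 were lower (Edem1, Derl1 and Selenos) and 1 was higher, of the 5 sensors and factors 2 were lower (Ern1 and Atf6b) and 1 was higher, and none of the 4 channel genes was called by limma or by edgeR. At an unadjusted p under 0.05, limma had 1 of these 4, Sec61a1, with a log2 fold change of -0.32 ± 0.14 (SE) and a limma adjusted p of 0.084. The roles were not tested against each other. Of the 19 lower calls, 11 held whichever of the 6 libraries was left out, namely Hspa5, Hspa13, Hyou1, Dnajc3, Creld2, Pdia3, Pdia4, Ern1, Edem1, Derl1 and Selenos. The other 8, Hsp90b1, Calr, Canx, Dnajc10, Sdf2l1, Pdia6, P4hb and Atf6b, were each lost without at least 1 library.

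Hspa5 encodes BiP, the main ER member of the HSP70 family and the protein that holds the stress sensors silent. It lies at chr2:34661982-34668880 (mm39, + strand), and the last 500 bases of the gene overlap Rabepk on the other strand. In CPM, its level was 1980, 1873 and 1601 for parental and 1087, 1371 and 1238 for MITF/TFE3 DKO. In the other lines it was 1649, 1747 and 1752 for MITF KO, 1814, 1597 and 1719 for TFE3 KO, 1955, 1517 and 1789 for TFEB KO, and 1937, 1668 and 2152 for TFEB/TFE3 DKO. It was 1524, 1401 and 1340 for MITF/TFEB DKO and 1558, 1475 and 1527 for TKO. The libraries of both MITF DKOs and of the TKO all lay below the parental ones, and the other lines overlapped them. The log2 fold change against the parental cells was -0.56 ± 0.11 (SE) in the MITF/TFE3 DKO (limma adjusted p = 2.8e-04) and -0.35 ± 0.11 for MITF/TFEB DKO (limma adjusted p = 0.0094). The second call was lost without parental replicate 1, where the log2 fold change was -0.29 and limma's adjusted p 0.056.

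Hsp90b1 encodes GRP94, the ER member of the HSP90 family, at chr10:86526073-86541446 (mm39, - strand). Its level in CPM was 962, 962 and 1009 for parental and 822, 606 and 868 for MITF/TFE3 DKO. It was 1364, 1109 and 1361 for MITF/TFEB DKO and 1276, 1332 and 1345 for TKO. It was 972, 1042 and 1099 for MITF KO, 759, 959 and 1090 for TFE3 KO, 995, 918 and 912 for TFEB KO and 955, 1024 and 899 for TFEB/TFE3 DKO. The libraries of the MITF/TFE3 DKO were all below the parental ones, and those of the MITF/TFEB DKO and the TKO all above. The log2 fold changes were -0.37 ± 0.12 (limma adjusted p = 0.019), 0.38 ± 0.12 (limma adjusted p = 0.012) and 0.43 ± 0.12 (limma adjusted p = 0.0049), so that GRP94 and BiP mRNA moved in opposite directions in the MITF/TFEB DKO. Without MITF/TFE3 DKO replicate 2, the lowest library, the first was -0.21 and was not called (limma adjusted p = 0.16), nor was it without parental replicate 3 (-0.35, limma adjusted p = 0.057). Without MITF/TFEB DKO replicate 3 the second was 0.33 (limma adjusted p = 0.051). In the annotation, 4.2% of the 50-base words in the last 500 bases of its transcript also occur in Gm15344, which overlaps its end on the same strand.

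Pdia4 encodes ERp72, an isomerase with several thioredoxin domains, at chr6:47770077-47790462 (mm39, - strand). In the MITF/TFE3 DKO it had the largest fall of the 35 genes on the log2(CPM + 1) scale. In CPM, its level was 394, 392 and 312 for parental and 128, 195 and 139 for MITF/TFE3 DKO, 2.39-fold lower on the log2(CPM + 1) scale. It was 278, 167 and 248 for TFE3 KO, 381, 454 and 370 for MITF KO, and 480, 204 and 429 for TFEB KO. It was 441, 318 and 467 for TFEB/TFE3 DKO, 531, 383 and 384 for MITF/TFEB DKO, and 375, 368 and 359 for TKO. The MITF/TFE3 DKO and the TFE3 KO both lay below all parental libraries, and the TKO lay within their range. The log2 fold change was -1.26 ± 0.24 for MITF/TFE3 DKO (limma adjusted p = 2.2e-04). Pdia4 was the only member at least 2-fold changed in that line in this fit. Of all genes, 5.87% passed a 2-fold change there at an unadjusted p under 0.05. By edgeR, and with an added value of 0.25, 2 members were past it. In the TFE3 KO the log2 fold change of Pdia4 was -0.68 ± 0.24 and was not called (limma adjusted p = 0.065).

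The other isomerases fell less. Pdia3 (ERp57, which works with calnexin and calreticulin) had a log2 fold change of -0.68 ± 0.10 (limma adjusted p = 1.2e-05), with a mean of 316 ± 16.5 CPM (SD, n = 3) against 506 ± 12.8 CPM. Pdia6 (-0.34 ± 0.10) and P4hb (the archetypal protein disulfide isomerase, -0.20 ± 0.07) had smaller falls, and both calls were lost without MITF/TFE3 DKO replicate 2, P4hb also without its replicate 1 or parental replicate 1 or 3. Among the chaperones, Hspa13, an HSP70-like ER ATPase, fell by 0.88 on the log2 scale, from 35.4 ± 3.70 to 18.8 ± 2.02 CPM (limma adjusted p = 1.0e-06). Creld2, a stress-induced isomerase-like protein, fell by 0.69, and Dnajc3 (p58IPK, a BiP cofactor that also restrains PERK) fell by 0.55. Hyou1, the exchange factor of BiP, fell by 0.50. The lectin chaperones Canx and Calr fell by 0.45 and 0.28. Dnajb9, Dnajb11 and Manf were not called in this line. The heat map orders the 35 genes by role.

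**Figure D2:**
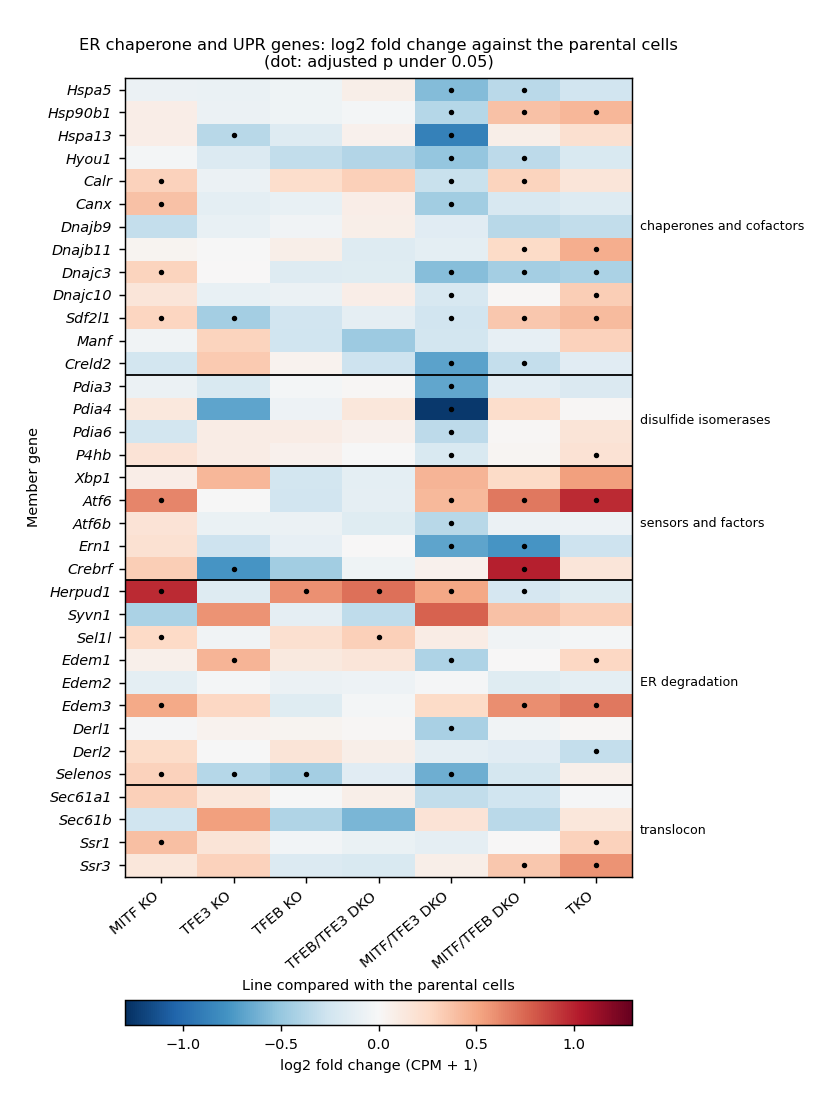
Log2 fold change of each ER gene (rows, grouped by role) in each of 7 lines against the parental cells (columns), blue for lower and red for higher, with a dot for limma's adjusted p under 0.05. The column of the MITF/TFE3 DKO is blue through the chaperones and isomerases (14 of 17 dotted), while Herpud1 is dotted in 5 columns, red in 4 and blue in 1.

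The genes of ER-associated degradation did not move as 1 group in the MITF/TFE3 DKO. Selenos (a selenoprotein of the retrotranslocation complex), Derl1 and Edem1 (a lectin that takes misfolded glycoproteins to degradation) fell by 0.63, 0.43 and 0.41 on the log2 scale. Herpud1, which encodes a membrane adaptor of the same machinery, was 0.51 ± 0.08 higher (limma adjusted p = 1.6e-05). Sel1l, Edem2, Edem3, Derl2 and Syvn1, the ligase HRD1, were not called. Among the channel genes, Sec61a1 had a mean of 899 ± 167 CPM (SD, n = 3) against 1116 ± 167 CPM and Ssr1 of 139 ± 5.50 CPM against 150 ± 3.01 CPM.

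The MITF/TFE3 DKO was also compared with the MITF KO, the line with which it shares the loss of MITF. Here 22 of the 35 genes were lower and 1 (Syvn1) was higher, against 19.7% and 18.1% of all genes. The median log2 fold change was -0.45, against -0.01 over all genes. The largest falls were in Pdia4 (-1.39 ± 0.24), Hspa13 (-0.97 ± 0.11), Selenos (-0.93 ± 0.10), Ern1 (-0.89 ± 0.17), Canx (-0.84 ± 0.13) and Dnajc3 (-0.84 ± 0.08). Of the 22 calls, 19 held whichever library was left out, and Hsp90b1, Hyou1 and Derl2 did not. The single higher call, Syvn1, was lost without MITF KO replicate 1 or 2 or MITF/TFE3 DKO replicate 1 or 3, and its last 500 bases overlap Mrpl49 on the other strand.

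The loss of TFE3 was also compared with and without MITF, as the difference between the MITF/TFE3 DKO against the MITF KO and the TFE3 KO against the parental cells. The TFE3 KO alone had 4 lower and 1 higher of the 35 genes (7.78% and 4.50% of all genes), namely Crebrf (-0.77 ± 0.14), Sdf2l1 (-0.44 ± 0.09), Selenos (-0.37 ± 0.10) and Hspa13 (-0.36 ± 0.11) lower and Edem1 (0.44 ± 0.11) higher. Without parental replicate 1 the lower calls were Sdf2l1 and Crebrf alone, as they were without parental replicate 2, and Edem1 was lost without parental replicate 2 or TFE3 KO replicate 2. In a fit of only the libraries compared, limma called 1 member lower in the TFE3 KO and none higher. In the test of the difference, 13 of the 35 genes passed, where 20.2% of all genes did. In all 13 the log2 fold change was lower in the absence of MITF. Of these calls 10 held whichever library was left out, and Calr, Pdia3 and Atf6b did not. Edem1 had the largest difference: it was 0.44 ± 0.11 higher with MITF and -0.47 ± 0.11 without, a difference of -0.91 ± 0.16 (limma adjusted p = 2.1e-04). Dnajc3 was at 0.00 ± 0.08 with MITF and -0.84 ± 0.08 without (limma adjusted p of the difference 4.0e-06). Creld2 differed by -0.79 ± 0.16, Sec61a1 by -0.77 ± 0.20, Canx by -0.71 ± 0.18 and Ssr1 by -0.67 ± 0.08. For Pdia4 the values were -0.68 ± 0.24 with MITF and -1.39 ± 0.24 without, and the difference was not called. The comparisons with and without MITF share no libraries.

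**Figure D3:**
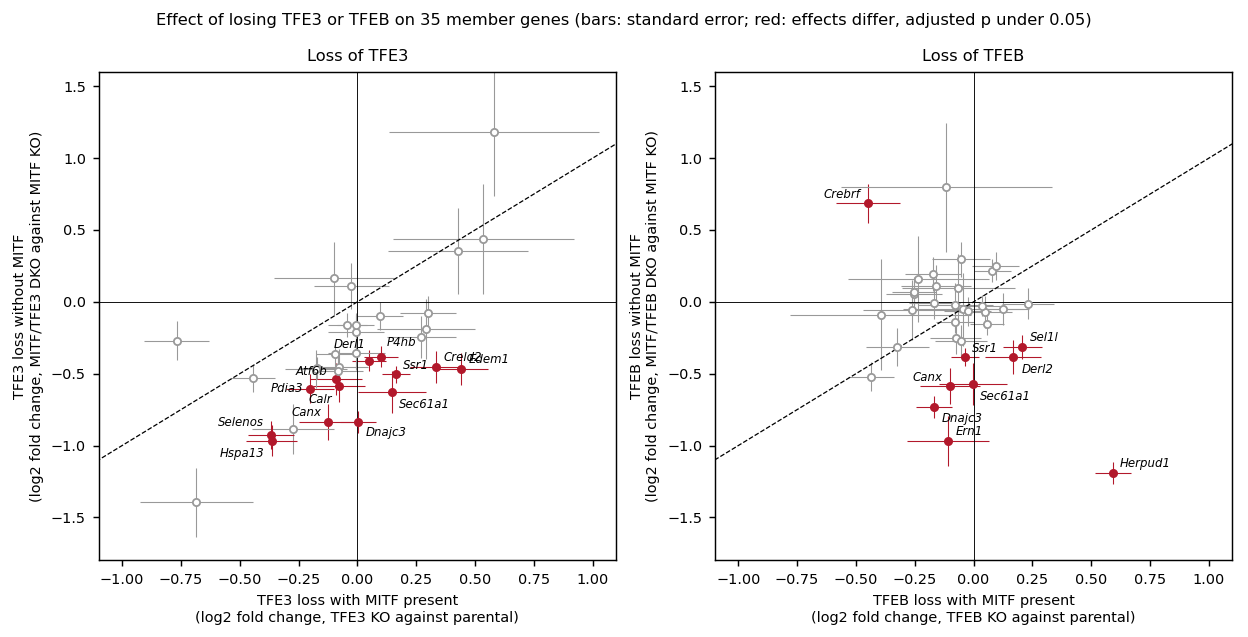
Log2 fold change of each ER gene on loss of TFE3 (left) or TFEB (right), with MITF present (horizontal axis) and without MITF (vertical axis), bars for 1 standard error, dashed line for equal effects and red for genes whose effects differ at an adjusted p under 0.05. The 13 red genes on the left lie below the line, as do 8 of the 9 on the right, with Crebrf above it and Herpud1 farthest below.

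When TFEB was missing as well, most of the folding genes were higher. In the TKO against the MITF/TFE3 DKO, 21 of the 35 genes were higher and 1 (Herpud1) was lower, against 26.6% and 24.2% of all genes, with a median log2 fold change of 0.41 (0.01 over all genes). Pdia4 (1.27 ± 0.24), Hspa13 (1.08 ± 0.11), Hsp90b1 (0.80 ± 0.12), Selenos (0.70 ± 0.10) and Edem1 (0.68 ± 0.11) had the largest differences. Of the 21 calls 17 held whichever library was left out, and Hspa5, Manf, Atf6b and Edem3 did not. Hspa5 was 0.31 ± 0.11 higher (limma adjusted p = 0.022) and was lost without MITF/TFE3 DKO replicate 1 (0.22, limma adjusted p = 0.13), TKO replicate 1 (0.29, limma adjusted p = 0.065) or TKO replicate 3 (0.31, limma adjusted p = 0.055). The MITF/TFEB DKO had 16 members higher and 1 (Herpud1) lower than the MITF/TFE3 DKO, where 25.5% and 22.4% of all genes were. Both comparisons share the MITF/TFE3 DKO libraries. The TKO had 2 members higher (Dnajc10 and Ssr1) and 1 lower (Crebrf) than the MITF/TFEB DKO, from which it differs in TFE3, with 5.41% and 6.99% of all genes. Dnajc10 was lost without MITF/TFEB DKO replicate 2 (0.26, limma adjusted p = 0.068) or replicate 3 (0.28, limma adjusted p = 0.051).

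In the MITF KO, 10 of the 35 genes were higher than in the parental cells (20.1% of all genes) and 0 were lower (17.8%). For the lower side, limma had 2 genes at an unadjusted p under 0.05 and edgeR called 0. In a fit of only the libraries compared, limma called 2 members lower. The higher genes were Herpud1 (0.97 ± 0.08), Atf6 (0.63 ± 0.12), Edem3 (0.49 ± 0.15), Ssr1 (0.39 ± 0.06), Canx (0.38 ± 0.13), Calr, Selenos, Dnajc3, Sdf2l1 and Sel1l, the last 5 between 0.26 and 0.30. The calls of Herpud1, Atf6, Dnajc3 and Ssr1 held whichever library was left out, and without MITF KO replicate 3 the count was 6. The mean of Canx was 760 ± 58.3 CPM (SD, n = 3) in the parental cells, 992 ± 76.1 CPM for MITF KO and 557 ± 70.2 CPM for MITF/TFE3 DKO, and its call in the MITF KO was lost without parental replicate 3 or MITF KO replicate 2. No member reached a 2-fold change at an unadjusted p under 0.05 in the MITF KO, TFE3 KO, TFEB KO, TFEB/TFE3 DKO or TKO, where 6.28%, 1.71%, 0.783%, 0.958% and 14.7% of all genes did, and edgeR gave the same counts.

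The TKO and the MITF/TFEB DKO had members moving both ways. In the TKO 10 of the 35 were higher and 2 were lower (28.3% and 27.9% of all genes), and in the MITF/TFEB DKO 8 were higher and 6 were lower (28.8% and 27.3%). The higher shares were close to or below those of all genes. Both comparisons share the parental libraries. Side by side, in the TKO and then the MITF/TFEB DKO, Hsp90b1 was at 0.43 and 0.38, Dnajb11 at 0.47 and 0.25, Sdf2l1 at 0.41 and 0.35, Ssr3 at 0.58 and 0.35, and Dnajc3 at -0.41 and -0.45 (SE of 0.12, 0.08, 0.09, 0.12 and 0.08). Of the 8 higher calls in the MITF/TFEB DKO 5 held whichever library was left out. Ssr3 was lost without parental replicate 2 or MITF/TFEB DKO replicate 2 or 3 (0.28 to 0.32, limma adjusted p from 0.054 to 0.085), Hsp90b1 without replicate 3 of that line, and Calr without its replicate 1 or parental replicate 3. Of the 10 in the TKO 8 held, Edem1 was lost whichever of the 6 libraries was left out, and P4hb was lost without any of them but parental replicate 3. Without parental replicate 1 the lower count of the MITF/TFEB DKO was 3, since Hspa5, Hyou1 and Creld2 were lost. Of the 2 lower calls of the TKO, Derl2 was lost without parental replicate 2 (-0.23, limma adjusted p = 0.15) or TKO replicate 3 (-0.23, limma adjusted p = 0.16). In a fit of only the libraries compared, limma called 6 members lower in the TKO.

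In both lines several of these genes lay among neighbours that moved the same way. The median log2 fold change of the 100 nearest genes with a mean of at least 5 CPM was 0.68 around Edem3 (chromosome 1) for the MITF/TFEB DKO and 0.76 for the TKO, where Edem3 itself was at 0.60 ± 0.15 and 0.68 ± 0.15. Edem3, a mannosidase-like protein that marks glycoproteins for degradation, was thus at -0.08 and -0.07 relative to its neighbours. Around Dnajb11, a BiP cofactor on chromosome 16, the medians were 0.29 and 0.33, with Dnajb11 at 0.25 and 0.47. Of the 8 higher calls in the MITF/TFEB DKO 6 kept their sign after the neighbours' median was subtracted and 2 remained at 0.2 or more, and of the 10 in the TKO these counts were 9 and 5. Of the 19 lower calls in the MITF/TFE3 DKO, 19 kept their sign and 18 remained at -0.2 or lower.

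**Figure D4:**
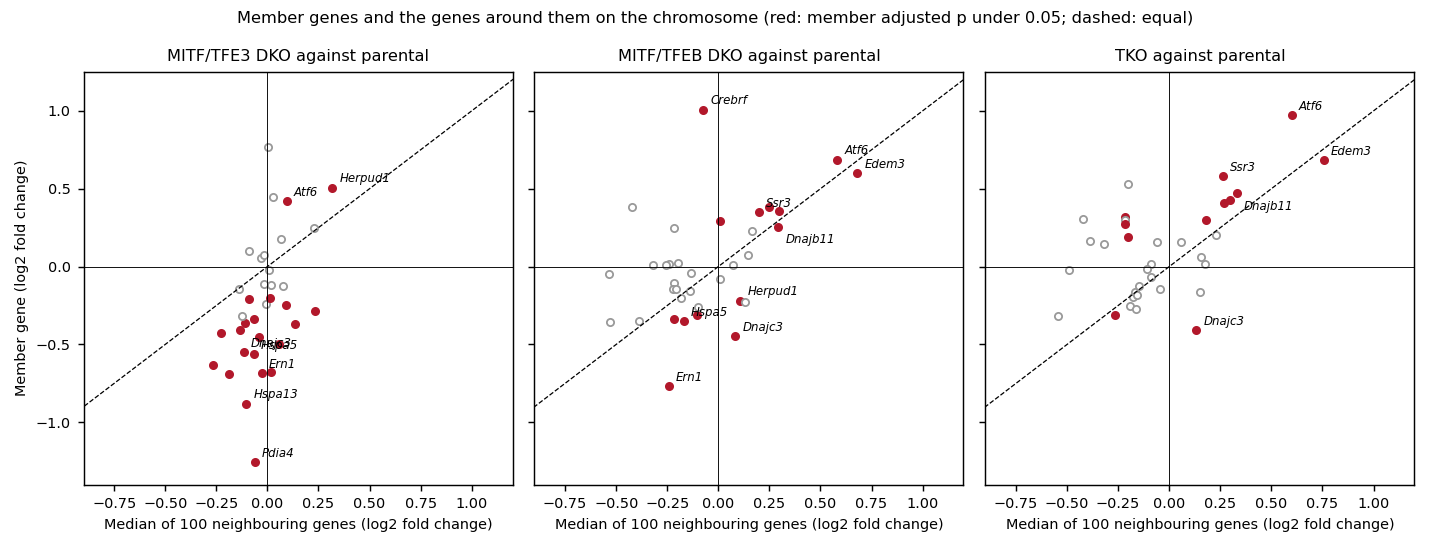
Log2 fold change of each ER gene (vertical axis) and the median of the 100 nearest genes on its chromosome (horizontal axis) in 3 lines against the parental cells, red for genes called by limma and a dashed line for equality. In the MITF/TFE3 DKO the neighbour medians run from -0.27 to 0.32 and 19 of the 21 red genes lie below 0, while in the other lines Atf6 and Edem3 sit at neighbour medians between 0.58 and 0.76.

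Atf6 encodes the membrane-bound factor that is cut in the Golgi and induces the chaperones, and lies at chr1:170532026-170696208 (mm39, - strand). Its level in CPM was 21.2, 22.2 and 24.4 for parental, 35.1, 35.9 and 35.5 for MITF KO, and 27.1, 28.5 and 36.8 for MITF/TFE3 DKO. It was 34.3, 37.7 and 38.7 for MITF/TFEB DKO and 43.8, 45.7 and 46.1 for TKO. It was 18.6, 24.2 and 25.2 for TFE3 KO, 19.9, 19.7 and 16.8 for TFEB KO, and 21.0, 22.5 and 19.0 for TFEB/TFE3 DKO. Every library of the 4 lines without MITF was above every library of the 4 lines with it, and the TKO was highest. The log2 fold changes against the parental cells were 0.63 ± 0.12 for MITF KO, 0.42 ± 0.12 for MITF/TFE3 DKO, 0.69 ± 0.12 for MITF/TFEB DKO and 0.97 ± 0.12 for TKO (limma adjusted p = 1.9e-04, 0.0066, 3.7e-05 and 2.9e-07). The call in the MITF/TFE3 DKO was lost without its replicate 3 (0.29, limma adjusted p = 0.064). The neighbours' medians in these 4 lines were 0.08, 0.10, 0.58 and 0.60, so that relative to them Atf6 was at 0.55, 0.33, 0.10 and 0.37. Its paralogue Atf6b was lower in the MITF/TFE3 DKO (-0.36 ± 0.11, limma adjusted p = 0.011) and was not called in the other 6.

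Ern1 encodes IRE1, the sensor that splices Xbp1 mRNA, and lies at chr11:106283818-106378686 (mm39, - strand). It had few reads, with 11 in its lowest library. In CPM, its level was 1.94, 2.23 and 1.53 for parental, 0.955, 0.660 and 0.777 for MITF/TFE3 DKO, and 0.706, 0.462 and 0.956 for MITF/TFEB DKO. It was 2.35, 2.73 and 1.91 for MITF KO, 0.997, 1.73 and 1.49 for TFE3 KO and 1.92, 1.55 and 1.57 for TFEB KO. It was 1.28, 1.93 and 2.62 for TFEB/TFE3 DKO and 1.603, 1.47 and 1.12 for TKO. The MITF/TFE3 and MITF/TFEB DKOs lay below all parental libraries, with log2 fold changes of -0.69 ± 0.17 (limma adjusted p = 0.0030) and -0.77 ± 0.17 (limma adjusted p = 6.8e-04), which the added 1 CPM makes smaller. With that addition at 0.25, and by edgeR on the reads, both lines counted 2 members past a 2-fold change in place of 1.

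Xbp1, the factor whose spliced form raises degradation and secretory genes, was not called in any line, and total reads at its 3′ end do not tell the spliced form from the unspliced. It lies at chr11:5470606-5483027 (mm39, + strand). Its level in CPM was 29.5, 25.1 and 41.3 for parental, 37.1, 25.8 and 38.8 for MITF KO, and 27.7, 61.2 and 44.9 for TFE3 KO. It was 22.2, 40.4 and 20.5 for TFEB KO, 25.2, 42.3 and 21.9 for TFEB/TFE3 DKO, and 55.5, 30.9 and 46.2 for MITF/TFE3 DKO. It was 25.6, 43.0 and 46.9 for MITF/TFEB DKO and 44.3, 46.2 and 46.4 for TKO. The TKO libraries were above all parental ones, and the others overlapped them. The spread within a line was wide. In the TFE3 KO, the library highest for Xbp1, replicate 2, was also highest for Syvn1 (30.1 CPM, against 8.68 and 20.9 CPM) and lowest for Pdia4. The same held for replicate 2 of the TFEB KO and of the TFEB/TFE3 DKO and for replicate 3 of the parental cells and of the TKO. Replicate 2 of the MITF KO and of the MITF/TFE3 DKO and replicate 1 of the MITF/TFEB DKO were lowest for Xbp1 and Syvn1 and highest for Pdia4. The cause of this spread was not tested. The log2 fold change in the TKO was 0.53 ± 0.30 (limma adjusted p = 0.14), with a 95% interval from -0.09 to 1.15.

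Crebrf, a bZIP factor that promotes the turnover of CREB3 and whose promoter held 2 E-boxes, lies at chr17:26934559-26995609 (mm39, + strand). In CPM, its level was 18.1, 20.01 and 16.5 for parental, 9.43, 8.66 and 13.1 for TFE3 KO, and 38.8, 35.9 and 37.9 for MITF/TFEB DKO. It was 21.7, 20.4 and 19.0 for TKO, 16.3, 19.4 and 21.3 for MITF/TFE3 DKO, and 22.3, 25.3 and 21.6 for MITF KO. It was 13.2, 11.3 and 14.9 for TFEB KO and 19.5, 15.95 and 17.1 for TFEB/TFE3 DKO. The MITF/TFEB DKO, in which TFE3 is the remaining factor, stood above all 21 other libraries, and the TFE3 KO and TFEB KO lay below all parental libraries. The log2 fold changes against the parental cells were 1.01 ± 0.14 for MITF/TFEB DKO (limma adjusted p = 1.4e-06), the only member at least 2-fold changed there (13.7% of all genes), and -0.77 ± 0.14 for TFE3 KO (limma adjusted p = 4.7e-04). The TKO was lower than the MITF/TFEB DKO by 0.85 ± 0.14 (limma adjusted p = 9.1e-05) and did not differ by the test from the parental cells (0.16 ± 0.14). Its neighbours' median was -0.07 in the MITF/TFEB DKO. The 2-fold count of that line was 0 with an added value of 5.

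Herpud1 was higher in the MITF/TFE3 DKO, where most chaperones were lower. It encodes a ubiquitin-like membrane protein of the HRD1 complex and lies at chr8:95113022-95123141 (mm39, + strand). Its level in CPM was 101, 107 and 98.2 for parental, 189, 205 and 208 for MITF KO, and 158, 156 and 149 for TFEB KO. It was 171, 169 and 165 for TFEB/TFE3 DKO, 147, 140 and 149 for MITF/TFE3 DKO, and 84.9, 105 and 83.3 for TFE3 KO. It was 84.5, 92.3 and 85.6 for MITF/TFEB DKO and 91.8, 91.6 and 89.7 for TKO. The first 4 of these KO lines did not overlap the parental libraries and were above them, and MITF/TFEB DKO and TKO libraries were below. The log2 fold changes against the parental cells were 0.97 ± 0.08 for MITF KO, 0.72 ± 0.08 for TFEB/TFE3 DKO, 0.59 ± 0.08 for TFEB KO and 0.51 ± 0.08 for MITF/TFE3 DKO, each called whichever library was left out. It was -0.22 ± 0.08 for MITF/TFEB DKO (limma adjusted p = 0.018), a call lost without parental replicate 2 (-0.19, limma adjusted p = 0.080), without MITF/TFEB DKO replicate 1 (-0.20, limma adjusted p = 0.062) or without its replicate 3 (-0.20, limma adjusted p = 0.057). The neighbours' medians were 0.13, 0.37, 0.24 and 0.32 in the 4 lines where it was higher, about 0.84, 0.35, 0.35 and 0.19 below its own change. With MITF present, Herpud1 was 0.59 ± 0.08 higher in the TFEB KO than in the parental cells. Without MITF, it was 1.19 ± 0.08 lower on the log2 scale in the MITF/TFEB DKO than in the MITF KO. The difference between these changes was -1.78 ± 0.11 (limma adjusted p = 5.4e-12).

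**Figure D5:**
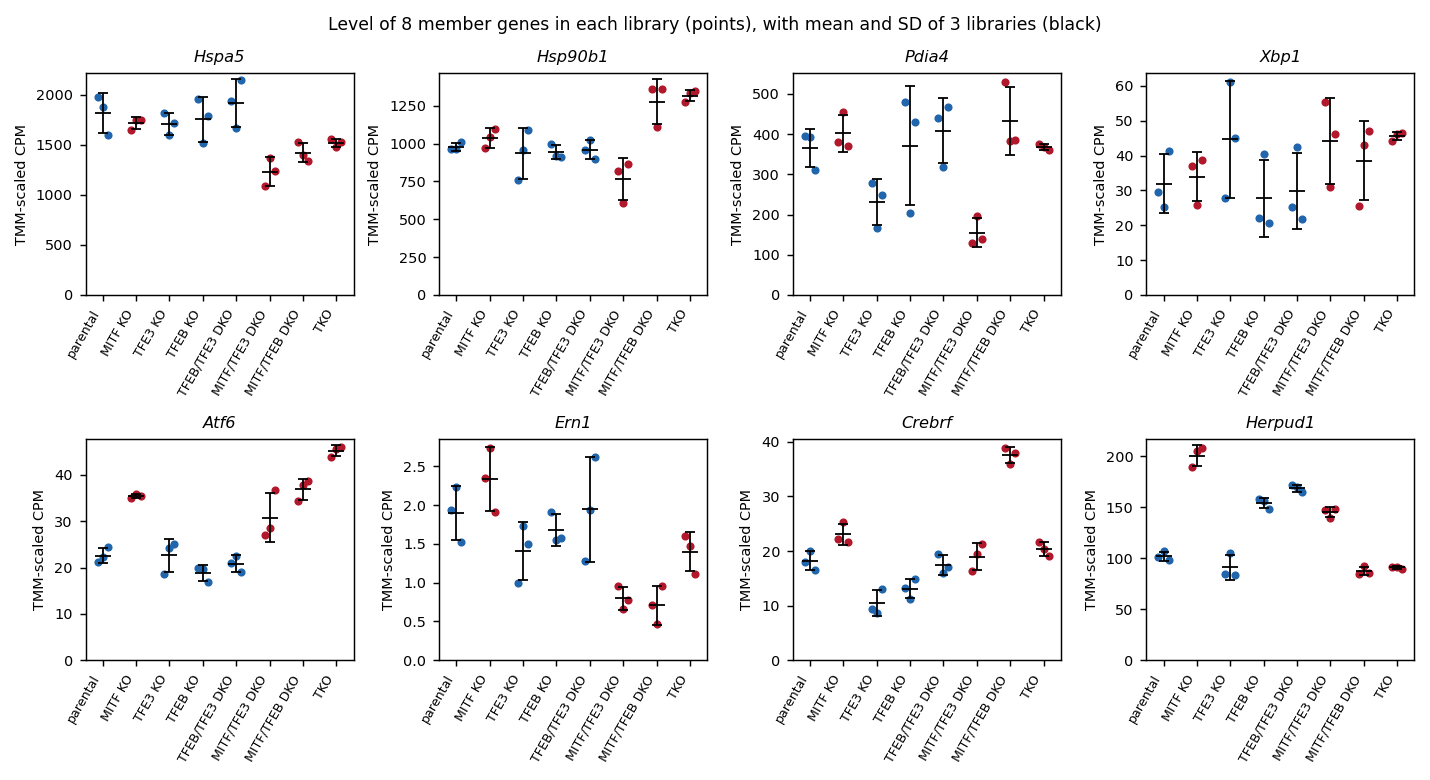
TMM-scaled CPM of 8 ER genes in each library (points, red for lines without MITF and blue for lines with it), with the mean and SD of the 3 libraries of a line in black. Hspa5 and Pdia4 are lowest in the MITF/TFE3 DKO, Atf6 is higher in all red lines than in all blue lines, Crebrf is highest in the MITF/TFEB DKO and Herpud1 is highest in the MITF KO.

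Loss of TFEB differed in its effect with and without MITF for 9 of the 35 genes, where 35.1% of all genes did. Crebrf differed by 1.13 ± 0.19 (limma adjusted p = 7.0e-05), with -0.45 ± 0.14 for TFEB KO over parental cells and 0.68 ± 0.14 for MITF/TFEB DKO over the MITF KO. The other 8, Herpud1, Ern1, Dnajc3, Sec61a1, Derl2, Sel1l, Canx and Ssr1, had the lower value without MITF. Of these, Canx and Sec61a1 were each lost without at least 1 library. In the TFEB KO alone, 1 member was higher (Herpud1) and 1 was lower (Selenos, -0.44 ± 0.10), with 2.25% and 2.59% of all genes, and Selenos was lost without TFEB KO replicate 2 (limma adjusted p = 0.055) or replicate 3 (limma adjusted p = 0.058). In the TFEB/TFE3 DKO 2 were higher (Herpud1 and Sel1l, 0.31 ± 0.08) and 0 were lower (4.72% and 4.09% of all genes). For the lower side, limma had 4 members at an unadjusted p under 0.05 and edgeR called 0, and Sel1l was lost without parental replicate 2 or 3 or TFEB/TFE3 DKO replicate 1 or 3 (0.28 to 0.32, limma adjusted p from 0.057 to 0.089). Against the MITF KO, the MITF/TFEB DKO had 3 higher and 10 lower members (25.1% and 23.9% of all genes) and the TKO 5 higher and 6 lower (26.1% and 23.9%), and these comparisons share the MITF KO libraries. Without MITF KO replicate 2 or MITF/TFEB DKO replicate 3 the 3 higher calls were 1 (Crebrf), and without MITF KO replicate 1, TKO replicate 2 or TKO replicate 3 the 5 higher calls of the TKO were 3.

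The PERK arm of the response was followed with a list of 11 genes outside the 35. In the MITF/TFE3 DKO 5 of the 11 were higher than in the parental cells and 2 were lower, against 20.2% and 21.7% of all genes. In the MITF KO 8 were higher and 1 was lower (20.1% and 17.8% of all genes), for TFE3 KO 0 and 5 (4.50% and 7.78%), for TFEB KO 1 and 0 (2.25% and 2.59%), and for TFEB/TFE3 DKO 3 and 0 (4.72% and 4.09%). For MITF/TFEB DKO the counts were 2 and 4 (28.8% and 27.3%) and for TKO 1 and 5 (28.3% and 27.9%). The lower share in the MITF/TFE3 DKO was thus close to that of all genes, and the higher shares in the MITF/TFEB DKO and TKO were below it. Trib3, a pseudokinase induced by ATF4 and CHOP, was at 66.1 ± 7.47 CPM (SD, n = 3) in the parental cells, 143 ± 14.3 CPM for MITF KO, 114 ± 9.48 CPM for MITF/TFE3 DKO, 22.6 ± 2.58 CPM for MITF/TFEB DKO and 12.9 ± 1.56 CPM for TKO. Chac1, which degrades glutathione, was at 52.2 ± 2.36, 122 ± 3.39, 78.3 ± 8.24, 19.4 ± 2.32 and 15.5 ± 0.376 CPM in the same lines. Ddit3, which encodes CHOP, had log2 fold changes of 1.03 ± 0.11 for MITF KO, 0.99 ± 0.11 for MITF/TFE3 DKO and -1.52 ± 0.11 for TKO, and Atf5 was 1.63 ± 0.13 higher in the MITF KO.

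The remaining ER genes are given by list, for the MITF/TFE3 DKO and the TKO, each set against parental cells. Of all genes, 20.2% were higher and 21.7% lower in the MITF/TFE3 DKO, and 28.3% and 27.9% in the TKO. Of 23 other folding genes 5 were higher and 6 lower in the MITF/TFE3 DKO (median log2 fold change 0.02), and 8 and 6 in the TKO, all shares close to those of all genes. Fkbp10, a prolyl isomerase of collagen folding, was at -2.40 ± 0.17 and -3.18 ± 0.17, Kdelr3, a retrieval receptor, at 1.09 ± 0.25 for MITF/TFE3 DKO, Pdia5 at -0.50 ± 0.15 there, and Dnajc1 at 1.05 ± 0.07 for TKO. Of 18 other degradation genes 6 were higher and 1 lower in the MITF/TFE3 DKO and 6 and 2 in the TKO, with the lectin Os9 (0.30 ± 0.11 and 0.59 ± 0.11), Ubxn4 (0.34 ± 0.06 and 0.51 ± 0.06) and the conjugating enzyme Ube2g2 (1.09 ± 0.30 and 0.75 ± 0.30) higher in both. In this list the higher share in the TKO was close to that of all genes, and the lower shares in both lines were below it.

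Of 29 other genes of the channel, signal recognition particle, signal peptidase and oligosaccharyltransferase, 2 were higher and 8 lower in the MITF/TFE3 DKO and 7 and 5 in the TKO. Set against the shares of all genes just given, the 8 were slightly above and the other counts below. Magt1, an oligosaccharyltransferase subunit, was at 0.62 ± 0.08 and 1.53 ± 0.08, Spcs2, of the signal peptidase, at -0.80 ± 0.09 and -0.21 ± 0.09, Sec61g at -0.48 ± 0.17 and -0.50 ± 0.17, and Srp9 at 0.88 ± 0.24 for TKO. Of 11 other stress factors 6 were higher and 1 (Creb3l2, -0.79 ± 0.16) was lower in the MITF/TFE3 DKO, and 5 and 1 in the TKO, with Bloc1s1, a known target of IRE1's RNase, at 0.72 ± 0.10 and 0.84 ± 0.10, Wfs1 at 0.50 ± 0.18 and 0.94 ± 0.18, and Creb3l1 at 0.70 ± 0.21 for MITF/TFEB DKO. Of 10 ER-phagy genes 4 were higher and 3 lower in the MITF/TFE3 DKO and 3 and 3 in the TKO, with the receptors Calcoco1 (0.62 ± 0.14 and 0.98 ± 0.14) and Tex264 (0.50 ± 0.10 and 0.51 ± 0.10) higher and Rtn3 (-0.36 ± 0.14 and -0.57 ± 0.14) lower. Both ER-phagy shares in the TKO were close to those of all genes. Cdk5rap3 was 0.74 ± 0.13 higher in the MITF KO, and was not called in those lines. In the 18 other degradation genes the MITF/TFE3 DKO had 1 lower against 6 higher calls, and in the 23 folding genes 6 lower against 5 higher. The 29 genes of the channel list leaned the same way as the 35, with 8 lower against 2 higher, where the 35 had 19 against 2. These shares were not tested against each other.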

How the data were processed

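RNA of 24 libraries (8 lines, 3 each) was read with a 3′ kit. Per the labels and methods, the authors trimmed reads with Trim Galore 0.6.5 and cutadapt 2.10, mapped them with STAR 2.7.8a to mm39 and deposited a normalised signal, CPM scaled by edgeR's TMM factors. The counting tool, annotation and gene filter are not given in the sources used here. Columns of other samples numbered 0. Library totals in the table run from 933263 to 1081081 and factors from 0.925 to 1.07. Reads were recovered as whole numbers from the smallest steps in each library (99.99% whole within 0.02 of a read), and depth was 18300902 to 26667877 reads, which gives counting error only.

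Lines were compared with limma 3.58.1 (variance trend, 16 residual degrees of freedom, Benjamini-Hochberg over 12010 genes) on log2(value + 1). This understates changes of low genes. Members are the 36 symbols of a list. They, the other lists and the tests were chosen with earlier results of these data known. Values in every library are given for Hspa5, Hsp90b1, Xbp1, Atf6, Ern1 and members at least 2-fold changed with an adjusted p under 0.05, and for Herpud1, which was chosen after its values were seen. Of each other list at most 4 genes with the largest change are named. edgeR 4.0.16 on the recovered reads was an alternative, and called 4944 genes in the MITF/TFE3 DKO against the parental cells, where limma called 5036. The other alternatives were pseudocounts of 0.25 and 5, a filter at a mean of 5 (9539 genes), quantile normalization, size factors by median of ratios, only the libraries compared, the replicate block, each library left out and subtraction of the median of 100 neighbours.

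Neighbours and positions came from GENCODE vM39 on GRCm39 (the same assembly as mm39), where 11705 genes had a position and 9340 served as neighbours. RefSeq promoters are on GRCm38.p6. R 4.3.3, Python 3.11.15, numpy 2.4.6, pandas 2.3.3, matplotlib 3.10.9 and BLAST 2.17.0 were used. On simulated data for the TKO against the parental cells (12010 genes), limma called 89.6% of 67 genes changed 1.5-fold, 100% of those changed 2-fold or 4-fold, and 0.0677% of 11810 unchanged genes. The simulation gave all genes and lines the same spread beyond counting error, and the changed genes had a mean of at least 5 CPM. In the real libraries the spread differed between genes and lines, so these shares do not give the power of the tests here. Whether the replicate numbers pair the libraries was not settled. Deviations of same-numbered libraries correlated at 0.02 on average over 84 pairs (from -0.66 to 0.77), and of others at -0.01. Of the 84 pairs 42 were over 0.1, and an average does not show whether some lines are paired.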

Additional observations from a re-analysis of the deposited data

Results flagged for a closer look

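For 22 results, the effect of losing 1 factor differed with and without MITF by limma's test of the difference (Benjamini-Hochberg over all genes). Of these 13 were for the loss of TFE3 (37.1% of the 35 genes, against 20.2% of all genes) and 9 for the loss of TFEB (25.7%, against 35.1% of all genes), the latter below the share of all genes. Values are log2 fold changes without MITF minus those with MITF, over the 4 lines of each comparison with 3 libraries each.

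For the loss of TFE3 the folding genes differed by -0.84 in Dnajc3, -0.79 in Creld2, -0.71 in Canx, -0.60 in Hspa13, -0.51 in Calr, -0.48 in P4hb and -0.40 in Pdia3. The degradation genes Edem1, Selenos and Derl1 differed by -0.91, -0.56 and -0.46. The channel genes Sec61a1 and Ssr1 differed by -0.77 and -0.67, and the factor Atf6b by -0.45. Calr, Pdia3 and Atf6b were each lost without at least 1 library.

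For the loss of TFEB, Crebrf differed by 1.13 and was the single positive value. Herpud1 differed by -1.78, Ern1 by -0.86, Dnajc3 by -0.57, Sec61a1 by -0.57, Derl2 by -0.55, Sel1l by -0.52, Canx by -0.49 and Ssr1 by -0.35. Canx and Sec61a1 were each lost without at least 1 library. Ern1 rests on few reads (11 in the lowest library).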

How the results depend on the processing

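Of 280 counts of members under the other settings that left out no library of the comparison, 264 stayed within 1.5 times the value reported. Among them were all 35 with the replicate number as a block. That block also left all 245 members' fold changes on the same side of the threshold (19 lower in the MITF/TFE3 DKO). Whether the numbers pair samples was not settled. With only the libraries compared, limma called 2 members lower in the MITF KO (0 in the fit of all libraries), 0 higher and 1 lower in the TFE3 KO, 0 lower in the TFEB KO, 6 lower in the TKO, 11 higher and 11 lower in the TKO against the MITF KO, and 6 higher for the TKO over the MITF/TFEB DKO. With median-of-ratios size factors 2 members were higher in the TFE3 KO, and with quantile normalization 2 were lower when the 2 MITF DKOs were compared and 1 was at least 2-fold changed in the MITF KO. By edgeR, and with a pseudocount of 0.25, 2 members were at least 2-fold changed in either MITF DKO, and 0 in that with TFEB with a pseudocount of 5. The cause of these shifts was not tested. Relative to the median of 100 neighbouring genes, Dnajb11 turned to -0.0407 in the MITF/TFEB DKO, and Edem3 to -0.0784 there and -0.0720 in the TKO.

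With 1 library left out, members higher and lower than in the parental cells ranged from 6 to 10 and 0 to 0 in the MITF KO, 0 to 2 and 2 to 4 in the TFE3 KO, 1 to 1 and 0 to 1 in the TFEB KO, 1 to 3 and 0 to 1 in the TFEB/TFE3 DKO, 1 to 2 and 15 to 17 in the MITF/TFE3 DKO, 6 to 8 and 3 to 7 in the MITF/TFEB DKO, and 8 to 9 and 1 to 3 in the TKO. Members at least 2-fold changed ranged from 0 to 1 in the MITF KO, TFE3 KO, TFEB/TFE3 DKO, MITF/TFEB DKO and TKO, and from 1 to 2 in the MITF/TFE3 DKO. Against the MITF KO the ranges were 0 to 1 and 21 to 23 in the MITF/TFE3 DKO, 1 to 4 and 8 to 12 in the MITF/TFEB DKO, and 3 to 5 and 5 to 6 in the TKO. Against the MITF/TFE3 DKO they were 13 to 17 and 1 to 2 in the MITF/TFEB DKO and 18 to 20 and 1 to 1 in the TKO, and for the TKO against the MITF/TFEB DKO 1 to 3 and 1 to 1. Members whose loss of TFEB differed ranged from 7 to 11, and of TFE3 from 10 to 15.

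Each genotype is 1 clone, so that a change of the clone and of the genotype cannot be told apart. Depth limits Ern1 (11 reads in its lowest library) and Dnajb9 (36 reads).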
